A study of Homo sapiens with 6 samples.

Results

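Proteoglycans are core proteins that carry sulfated sugar chains, and hyaluronan is a sugar chain of the same kind that is made at the plasma membrane without a core protein. A set of 9 genes of this group was taken by symbol: LUM, SDC1, SDC2, SDC4, GPC1, VCAN, CD44, HAS3 and SERGEF. The count table of the sorted cells gave 8 of them among its 19469 genes, and VCAN, which encodes the large hyaluronan-binding proteoglycan versican, was not analysed here. SERGEF encodes a guanine nucleotide exchange factor-like protein linked to secretion and is not a proteoglycan, so it is described on its own.

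RNA-seq was run on L3.6pl cells, a metastatic pancreatic cancer line of human origin. Untreated cells grown in DMEM with serum were stained with an antibody against L1CAM, a neural cell adhesion molecule, and sorted by FACS into an L1CAM-positive population (L1high) and an L1CAM-negative population (L1low), with dead cells excluded by 7AAD. The groups carried no engineered allele and differed in the surface level of L1CAM alone by design, with 3 libraries in each group. All cells came from the same line, whose name the titles give as L3_6PL and a second label as L6.6pl, and nothing in the labels ties a replicate to a separate culture or sort, so the p-values measure the spread between these libraries, which may be technical. The comparison asks which transcripts differ between L1low and L1high cells.

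Total counts on genes ran from 16334610 to 21064685 per library. The sorting marker L1CAM, on GRCh38 chromosome X between 153861514 and 153886173, had 84.0, 69.8 and 89.5 CPM (read counts scaled to a common library total with TMM factors) in L1high replicates 1, 2 and 3, while the L1low replicates had 17.7, 23.7 and 20.0. It fell by 1.99 on the log2 scale (SE 0.12, adjusted p = 4.7e-06 in the edgeR quasi-likelihood test, Benjamini-Hochberg). A log2 fold change above 0 means higher in L1low cells throughout, and a gene is called at an adjusted p under 0.05 over the 19467 genes tested. All 5 epithelial markers fixed for the check (EPCAM, CDH1, KRT8, KRT18 and KRT19) were expressed, with a summed level of 2696 to 3069 CPM in L1high and 3045 to 3233 in L1low libraries. KRT19 rose (log2 fold change 0.63) and EPCAM was called lower (-0.30), a call that was lost in 5 of 13 alternatives (adjusted p up to 0.18). KRT8 (-0.23, called in 2 of 13 alternatives), CDH1 (-0.04) and KRT18 (-0.01) were not called over the 6 libraries. In KRT8 and CDH1 every L1low library lay below every L1high library. KRT19 alone of the 5 had a positive log2 fold change, so a rise of the sum rests on KRT19. L1high replicate 2 stood further from the other L1high libraries (chi-square per degree of freedom 7.03 and 11.5) than these did from each other (3.66), and L1low replicate 3 stood further from the other L1low libraries (9.45 and 5.62) than these did (3.73).

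Syndecans and glypicans hold heparan sulfate chains at the cell surface, syndecans through a transmembrane segment and glypicans through a lipid anchor. There they act as co-receptors for growth factors and as matrix receptors. Lumican is a small leucine-rich proteoglycan of the matrix that binds fibrillar collagen. HAS3 is a hyaluronan synthase and CD44 the main cell surface receptor of hyaluronan. In pancreatic cancer, both hyaluronan and proteoglycans are abundant in the tumor stroma, and syndecan-1 and glypican-1 are also made by the cancer cells.

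In L1low cells LUM rose 1.71-fold, HAS3 rose 1.45-fold and SDC2 fell to a ratio of 0.607 against L1high cells. These 3 of the 8 members were called, where 7.95% of all genes tested were called. The 2 rises stand against 4.58% of all genes called higher, and the 1 fall against 3.37% called lower. The members were chosen with earlier results of these data known, so these shares do not test the set. The other 5 members, SDC1, SDC4, GPC1, CD44 and SERGEF, were not called, and their log2 fold changes lay between -0.12 and 0.20. The median log2 fold change of the 8 members was 0.17, against -0.01 over all genes tested. Each of the 8 kept its direction and its side of the threshold in all 13 alternative fits, the fit without L1high replicate 3, which corresponds to the library set of the study's own table, among them.

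**Figure D1:**
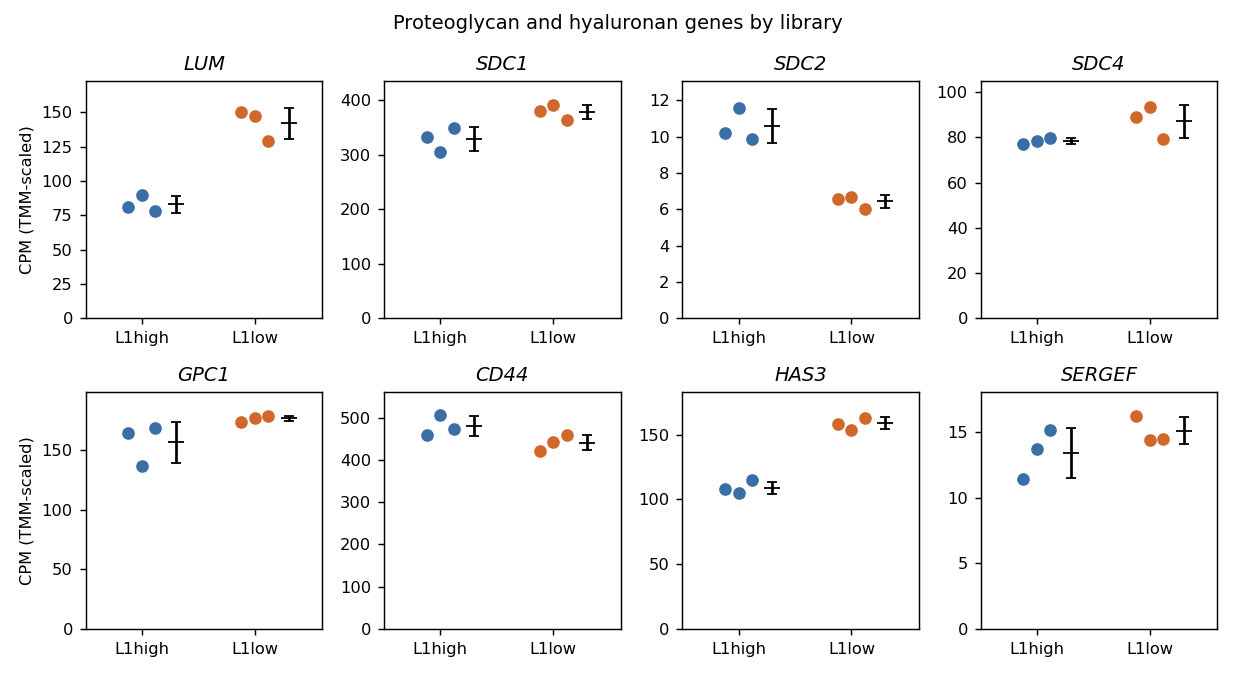
Each panel plots 1 gene, with its level in CPM (TMM-scaled, axis from 0) in the 3 L1high (blue) and 3 L1low (orange) libraries, and black bars give the mean ± SD of each group (n = 3). LUM and HAS3 lie higher and SDC2 lies lower in every L1low library than in any L1high library, while the SDC4 and SERGEF values of the groups overlap.

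**Figure D2:**
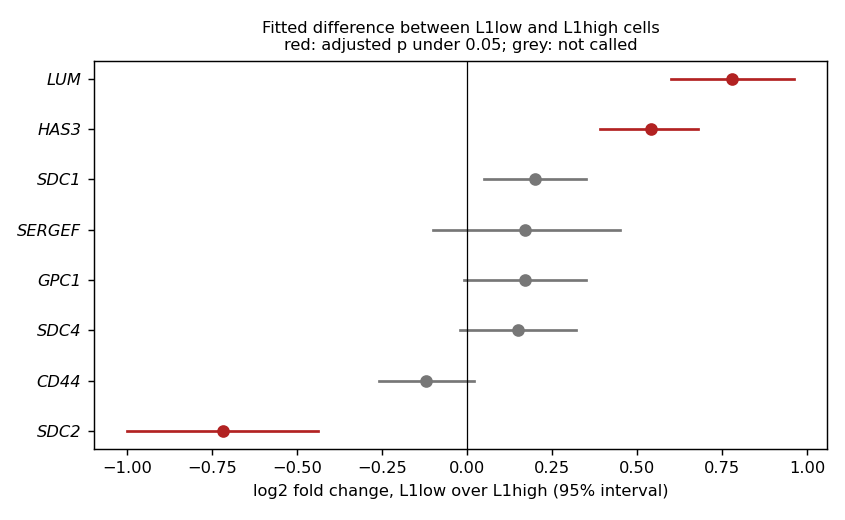
Points are log2 fold changes of L1low over L1high cells from the edgeR fit over 6 libraries, and lines are their 95% intervals. The intervals of LUM (0.60 to 0.96), HAS3 (0.39 to 0.68) and SDC2 (-1.0 to -0.44) lie far from 0, and those of SDC4, GPC1, CD44 and SERGEF include 0.

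Among the matrix proteoglycans, LUM (ENSG00000139329, GRCh38 chromosome 12 from 91102629 to 91111494, minus strand) stood at 80.8, 89.8 and 78.1 CPM in L1high replicates 1, 2 and 3. In the L1low replicates it stood at 150, 147 and 129 CPM. All L1low libraries were above all L1high libraries, and the means were 82.9 ± 6.13 and 142 ± 11.3 CPM (SD, n = 3 each). In the fit LUM rose by 0.78 on the log2 scale (SE 0.08, adjusted p = 0.00013 in edgeR's quasi-likelihood test), and it ran from 0.74 to 0.85 over the alternatives. No other annotated gene overlaps LUM. Of the 16 small leucine-rich proteoglycan genes listed, 3 were measured. CHAD, the gene of chondroadherin, had 21 to 36 counts in L1high and 30 to 40 in L1low libraries, and PODNL1 had 36 to 41 and 32 to 50. Neither was called (log2 fold changes 0.40 and 0.14). Per kilobase of exon, LUM stood at 31.0 RPKM in L1high cells, where CHAD stood at 0.812 and PODNL1 at 0.490. Decorin and biglycan, the best known relatives of lumican, were not analysed here.

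LUM is also a gene of fibroblasts, so fibroblast markers were set beside it. Of 9 markers, 3 were measured (COL1A1, COL3A1 and ACTA2), and the others (DCN, COL1A2, PDGFRA, PDGFRB, THY1 and FAP) were not analysed here. The summed level of the 3 ran from 180 to 231 CPM in L1high and from 177 to 186 in L1low libraries, and COL1A1 made up nearly all of it. COL1A1 stood at 171 to 222 CPM in L1high and 167 to 174 in L1low libraries (log2 fold change -0.25, adjusted p = 0.12 in edgeR's quasi-likelihood test), and without L1high replicate 2 it was called lower (0.0064). ACTA2 lay in the same direction as LUM, at 6.88 to 8.53 CPM in L1high and 8.87 to 9.75 in L1low libraries with no overlap, a difference of 0.26 on the log2 scale (adjusted p = 0.24 in that test). Over all 6 libraries, none of the 3 was called by edgeR or, where it gave an adjusted p, by DESeq2. An unadjusted p under 0.05 in edgeR was seen for 1 of them. COL3A1, a collagen typical of fibroblasts, stood between 1.02 and 2.20 CPM in the 6 libraries (log2 fold change 0.29). Of the immune and endothelial markers, CD68 and PECAM1 were measured, and their sum was 19.7 to 20.7 CPM in L1high and 23.2 to 24.5 CPM in L1low libraries. Their part in the result was not tested. In bulk RNA, fewer cells that express a gene and less of its RNA per cell cannot be told apart.

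The genes whose profile over the 6 libraries was nearest to that of LUM were CAV1, ITGB6, NRG1, PDGFC and FAM110C. The measure was the root mean square difference of log2 CPM after centring each gene, over the 12711 genes whose mean log2 CPM reached 3, and it was 0.0320 for CAV1, the gene of caveolin-1, and 0.0772 for FAM110C. Their log2 fold changes lay between 0.72 and 0.79, near that of LUM, which follows from how they were picked. The 6 libraries share the sort, so the list describes likeness over these libraries only.

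Of the syndecans, SDC1 was the most abundant and SDC2 moved most. SDC2 (ENSG00000169439, plus strand of chromosome 8 from 96493813 to 96611790), the syndecan typical of mesenchymal cells, stood at 10.2, 11.6 and 9.87 CPM in L1high replicates 1, 2 and 3. In the L1low replicates it stood at 6.55, 6.69 and 6.04 CPM. Every L1low library was below every L1high library, on raw counts of 217, 239 and 162 against 119, 120 and 107. It fell by 0.72 on the log2 scale (SE 0.13, adjusted p = 0.0048 in edgeR's quasi-likelihood test) and the log2 fold change ran from -0.76 to -0.65 over the alternatives. The change was thus measured in a transcript of low level.

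SDC1 (ENSG00000115884, minus strand of chromosome 2 from 20200797 to 20225433), the main syndecan of epithelial cells, stood at 333, 305 and 349 CPM in L1high replicates 1, 2 and 3. The L1low replicates stood at 380, 390 and 364 CPM. The groups did not overlap, but the log2 fold change of 0.20 (95% interval 0.05 to 0.35) was not called (adjusted p = 0.096 in edgeR's quasi-likelihood test, unadjusted 0.012). Its adjusted p ran from 0.058 to 0.31 over the alternatives. SDC1 had more counts than any other syndecan, between 5725 and 7060 per library.

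SDC4 (ENSG00000124145, minus strand of chromosome 20 from 45325288 to 45348424), a syndecan of focal adhesions, stood at 77.3, 78.3 and 79.9 CPM in L1high and at 88.9, 93.5 and 79.1 in L1low replicates 1, 2 and 3. L1low replicate 3 lay within the L1high range. SDC4 had a log2 fold change of 0.15 (95% interval -0.02 to 0.32, adjusted p = 0.26 in edgeR's quasi-likelihood test). SDC3, which is no member of the set but completes the family, stood at 12.7 ± 0.550 CPM in L1high and 14.4 ± 1.59 in L1low cells (SD, n = 3 each) and was not called (log2 fold change 0.19).

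Per kilobase of exon the family was made up almost wholly of SDC1 and SDC4. The summed level of the 4 syndecans was 125 ± 6.20 RPKM in L1high and 142 ± 6.29 in L1low cells (SD, n = 3 each). The difference of 16.2 RPKM had a p of 0.10 in a two-sided exact permutation test, which is the smallest that 3 against 3 libraries can give. SDC1 held 72.5% of this sum in L1high and 73.9% in L1low cells, and SDC4 held 24.0% and 23.5%. The SDC4 share did not differ beyond its spread (difference -0.453 percentage points, exact permutation p = 0.60), and its sign turned when L1high replicate 2 (0.150) or L1low replicate 3 (0.0849) was left out. The SDC2 share was 2.07 ± 0.287% in L1high and 1.11 ± 0.0135% in L1low cells (SD, n = 3 each), with no overlap between the groups (exact permutation p = 0.10, again the smallest possible). The fall of SDC2 thus concerned a small part of the syndecan transcripts.

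**Figure D3:**
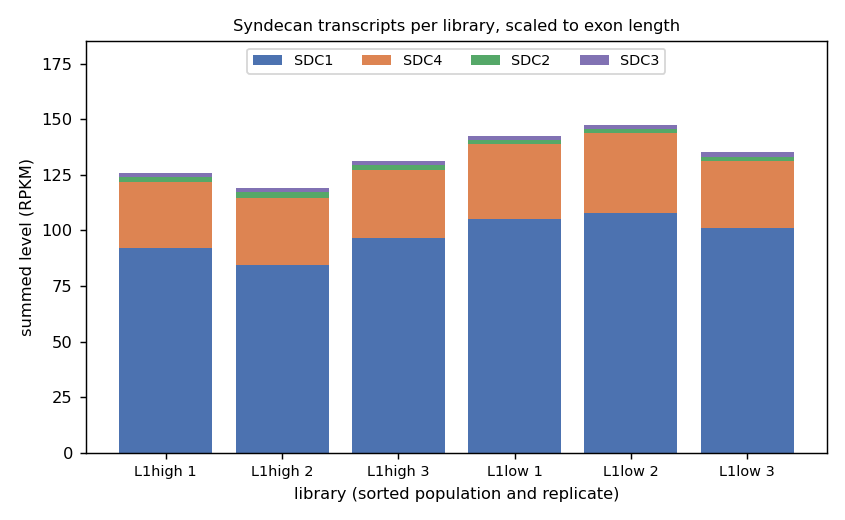
Bars stack the length-scaled levels (RPKM, from 0) of SDC1, SDC4, SDC2 and SDC3 in each of the 6 libraries, named by population and replicate. SDC1 and SDC4 make up nearly all of each bar, the sums run from 119 to 131 RPKM in L1high and from 135 to 147 in L1low libraries, and the SDC2 segment is thinner in L1low libraries.

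GPC1 (ENSG00000063660, plus strand of chromosome 2 from 240435663 to 240468076) encodes glypican-1, a lipid-anchored heparan sulfate proteoglycan often raised in pancreatic cancer. It stood at 165, 137 and 169 CPM in L1high and at 174, 177 and 179 in L1low replicates 1, 2 and 3. The low L1high value came from replicate 2, and the L1high libraries spread more (SD 17.3 CPM) than the L1low libraries (SD 2.10 CPM). The log2 fold change was 0.17 (95% interval -0.01 to 0.35, adjusted p = 0.23 in edgeR's quasi-likelihood test), and it was 0.08 once L1high replicate 2 was left out. Of the 10 syndecan and glypican genes, all of them measured, 2 were called. Besides SDC2 this was GPC3, the gene of glypican-3, which rose (log2 fold change 1.30, SE 0.34, adjusted p = 0.039 in edgeR's quasi-likelihood test) on counts of only 11, 11 and 8 in L1high and 29, 16 and 24 in L1low replicates 1, 2 and 3. The deposited table keeps genes above 1 CPM in at least 2 libraries, and GPC3 passed through L1low replicates 1 and 3 (1.6 and 1.36 CPM) with the L1high libraries between 0.487 and 0.535 CPM, so a gene with its levels could enter the table only by being higher in 1 group. Its call was lost when any library other than L1low replicate 2 was left out. The other glypicans had log2 fold changes between -0.30 (GPC2) and 0.17 (GPC1).

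HAS3 (ENSG00000103044, plus strand of chromosome 16 from 69105653 to 69118719) is the only hyaluronan synthase measured here. It stood at 108, 105 and 115 CPM in L1high and at 158, 154 and 163 in L1low replicates 1, 2 and 3. The groups lay well apart, with means of 109 ± 4.78 and 159 ± 4.60 CPM (SD, n = 3 each). HAS3 rose by 0.54 on the log2 scale (SE 0.07, adjusted p = 0.00042 in edgeR's quasi-likelihood test), and it ran from 0.51 to 0.58 over the alternatives. The 3' end of HAS3 shares 365 exon bases with CHTF8 and DERPC on the opposite strand, and the strand setting of the counting is not given in the sources used here. CHTF8, part of a clamp loader of DNA replication, stood at 145, 138 and 152 CPM in L1high and at 158, 153 and 145 in L1low replicates 1, 2 and 3 (log2 fold change 0.07), so the groups overlapped there. DERPC was not analysed here. By the same measure as for LUM, the profiles nearest to that of HAS3 were those of MT2A (root mean square difference 0.0227), SHC1, ZNF581, C1orf116 and GPR157, with log2 fold changes from 0.51 to 0.57.

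CD44 (ENSG00000026508, plus strand of chromosome 11 from 35138882 to 35232402) had the most counts of the 8 members, between 7666 and 10399 per library. It stood at 460, 506 and 473 CPM in L1high and at 422, 443 and 459 in L1low replicates 1, 2 and 3. The highest L1low library lay just under the lowest L1high library. The log2 fold change of -0.12 (95% interval -0.26 to 0.02) was not called (adjusted p = 0.29 in edgeR's quasi-likelihood test). CD44 is spliced into a standard form and longer variant forms, which counts per gene do not separate. An antisense gene, CD44-AS1, shares 84 exon bases with it and stood at 33.5 to 35.1 CPM in L1high and 29.0 to 34.6 in L1low libraries.

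Of the 22 listed genes for hyaluronan synthesis, binding and breakdown, 10 were measured and 2 were called, both higher: HAS3 and CEMIP. CEMIP encodes a protein needed for hyaluronan depolymerization in several cell types. It stood at 96.9, 77.9 and 92.8 CPM in L1high and at 141, 148 and 146 in L1low replicates 1, 2 and 3. It rose by 0.70 on the log2 scale (SE 0.08, adjusted p = 0.00036 in edgeR's quasi-likelihood test). Other breakdown genes had log2 fold changes below 0 and were not called by edgeR over the 6 libraries. HYAL1, a hyaluronidase, stood at 5.89 to 6.34 CPM in L1high and 3.40 to 5.36 in L1low libraries (-0.59, adjusted p = 0.080 in edgeR's quasi-likelihood test, called in 2 of 13 alternatives). CEMIP2, a cell surface relative of CEMIP, stood at 27.4 to 28.9 and 22.0 to 24.5 CPM (-0.29, adjusted p = 0.072 in the same test). HYAL2 was at -0.25 and HYAL3 at -0.07. These 4 are named after their values were seen. HMMR, an intracellular hyaluronan-binding protein of the mitotic spindle, was the highest of this list per kilobase when scaled to summed exon length. HMMR stood at 300 ± 53.1 CPM in L1high and 230 ± 42.3 in L1low cells (SD, n = 3 each). The difference of -0.38 on the log2 scale was not called by edgeR (adjusted p = 0.12), but it was called by DESeq2 (0.047). It was also called by edgeR with a block on replicate numbers (0.0047), and when L1high replicate 3 (0.031) or L1low replicate 1 (0.049) was left out. The median of the 10 genes was -0.19, against -0.01 over all genes tested.

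The RefSeq promoter table (GRCh38.p14) gave an entry for 6 of the 8 members, HAS3 being the 1 called member among them. The 250 bases before the listed starts of HAS3 and CEMIP are shown because these are the called hyaluronan genes, which rose together. The HAS3 window lies at chr16:69107290-69107539 on the plus strand, within an intron of longer annotated HAS3 transcripts. The CEMIP window lies at chr15:80779120-80779369 on the plus strand. Both are written 5' to 3', and capitals mark every match, on either strand, to a TATA box (TATAAA), a GC box (GGGCGG), an E-box (CACGTG), an AP-1 motif (TGACTCA) or a TEAD motif (GGAATG).
HAS3: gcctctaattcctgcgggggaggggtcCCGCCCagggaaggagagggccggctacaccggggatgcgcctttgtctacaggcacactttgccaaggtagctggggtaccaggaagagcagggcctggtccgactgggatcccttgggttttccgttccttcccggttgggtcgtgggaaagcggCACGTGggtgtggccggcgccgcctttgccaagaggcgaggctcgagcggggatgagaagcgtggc
CEMIP: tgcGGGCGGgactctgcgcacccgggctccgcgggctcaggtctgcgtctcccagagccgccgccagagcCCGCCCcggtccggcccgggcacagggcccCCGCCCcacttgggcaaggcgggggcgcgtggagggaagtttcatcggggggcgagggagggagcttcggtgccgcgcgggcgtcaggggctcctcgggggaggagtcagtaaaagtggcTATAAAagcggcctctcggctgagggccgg
The HAS3 window held a GC box and an E-box, and the CEMIP window held a TATA box and GC boxes. Among 35116 windows of the same length in the table, 42.6% held the GC box, 6.34% the E-box, 10.7% the TATA box, 4.20% the AP-1 motif and 11.9% the TEAD motif. All 6 member entries held a GC box, HAS3 alone among them held the E-box, and none held the other 3 motifs. These are matches of letters and were not tested for binding.

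SERGEF (ENSG00000129158, minus strand of chromosome 11 from 17788048 to 18013047) stood at 11.4, 13.7 and 15.2 CPM in L1high and at 16.2, 14.4 and 14.5 in L1low replicates 1, 2 and 3. The groups overlapped. The log2 fold change was 0.17 (95% interval -0.10 to 0.45, adjusted p = 0.45 in edgeR's quasi-likelihood test). It shares 403 exon bases with the noncoding gene ENSG00000255448 on the same strand, and reads there could have been split or dropped by the counting. The gene of the proteoglycan serglycin is SRGN, which is named here after its values were seen. SRGN had 19, 26 and 19 counts in L1high and 15, 9 and 17 in L1low replicates 1, 2 and 3 and was not called (log2 fold change -0.53, adjusted p = 0.38 in edgeR's quasi-likelihood test). SRGN passed the 1 CPM limit of the deposited table through L1high replicates 2 and 3 (1.27 and 1.16 CPM). The L1low libraries lay between 0.501 and 0.96 CPM, so its difference carries the same limit as that of GPC3.

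Per kilobase of exon, SDC1 stood highest in L1high cells at 91.0 ± 6.09 RPKM, followed by CD44 at 48.0 ± 2.38, LUM at 31.0 ± 2.30, SDC4 at 30.0 ± 0.513, GPC1 at 24.1 ± 2.66 and HAS3 at 21 ± 0.920 (SD, n = 3 each). LUM and SDC4, and likewise GPC1 and HAS3, overlapped in this order. SERGEF at 3.96 ± 0.567 and SDC2 at 2.59 ± 0.229 RPKM were lowest. In L1low cells LUM came after SDC1 (105 ± 3.60), at 53.2 ± 4.23 RPKM, and above CD44 at 44.2 ± 1.87. SDC4 (33.4 ± 2.81) and HAS3 (30.5 ± 0.885) overlapped there, and HAS3 stood above GPC1 (27.1 ± 0.322). With the length of the MANE Select transcript, an alternative added after seeing the data, CD44 stood at 81.3 RPKM in L1low cells and above LUM, and GPC1 at 47.5 stood above HAS3 at 37.8, so these orders depend on the length used.

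Of the 144 genes in the lists of proteoglycans, of enzymes of their sugar chains and of their partners, 98 were measured. Besides the members, 91 were measured and 11 (12.1%) were called, 6 higher and 5 lower in L1low cells, where 7.95% of all genes were called. DESeq2 called 9 of the 91. The 6 higher include GPC3, which entered the deposited table only through L1low libraries. The calls of GPC3, TGFBR3 and CSPG5 were each lost in most fits that left out 1 library. Their median log2 fold change was -0.02, against -0.01 over all genes. The lists were also chosen with earlier results of these data known, so these shares do not test them.

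**Figure D4:**
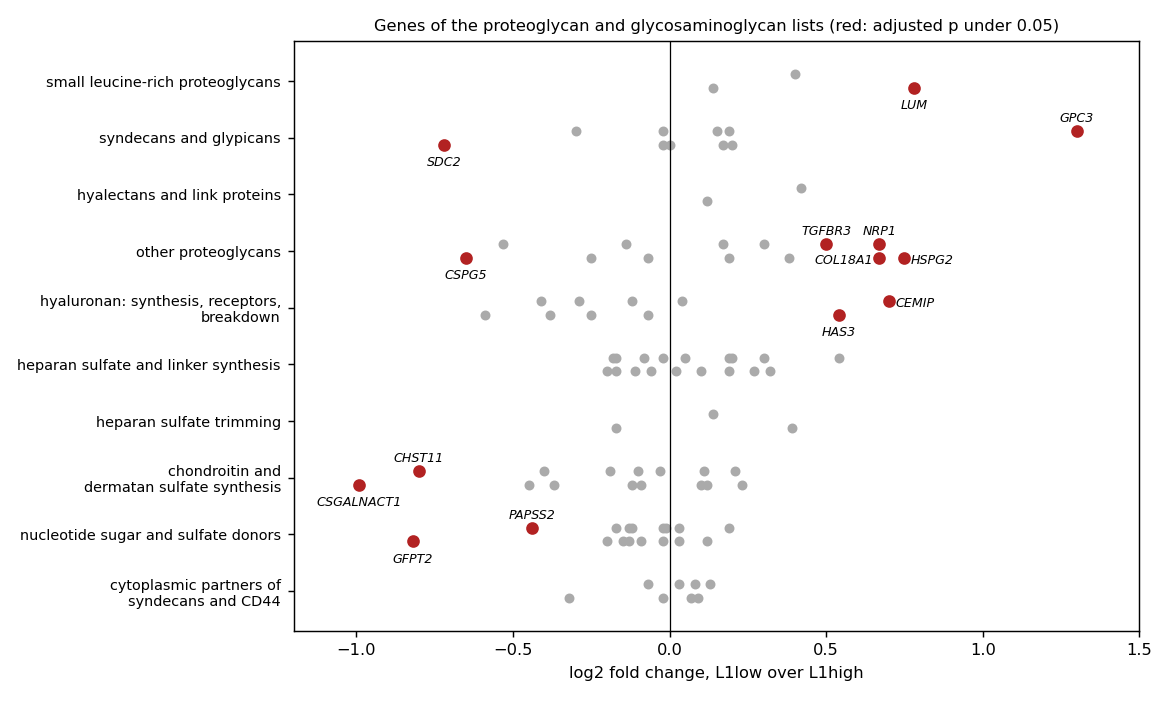
Each point is a measured gene of a list, placed by its log2 fold change of L1low over L1high cells, with called genes in red and named. For chondroitin and dermatan sulfate synthesis 2 of 15 genes (13.3%) were called, and for sugar and sulfate donors 2 of 16 (12.5%), all below 0. Among the other proteoglycans 5 of 13 were called, 4 of them above 0. Over all genes tested, 7.95% were called.

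Among 13 other proteoglycan genes, 4 rose and 1 fell. The basement membrane proteoglycans perlecan and collagen XVIII rose: HSPG2 went from 30.8 ± 8.26 to 51.6 ± 2.65 CPM (SD, n = 3 each, log2 fold change 0.75) and COL18A1 from 39.5 ± 6.60 to 62.7 ± 3.43 (0.67). In both genes L1high replicate 2 was the lowest library, at 21.3 and 31.9 CPM. NRP1, a co-receptor for semaphorins and VEGF that can carry a sugar chain, rose from 13.7 ± 0.140 to 21.8 ± 1.32 CPM (log2 fold change 0.67, adjusted p = 0.0014 in edgeR's quasi-likelihood test). TGFBR3, the TGF-beta co-receptor betaglycan, rose from 6.48 ± 0.112 to 9.17 ± 1.26 CPM (0.50). CSPG5 fell from 4.65 ± 0.223 to 2.96 ± 0.458 CPM (-0.65). The calls of TGFBR3 (adjusted p = 0.047 in edgeR's quasi-likelihood test) and CSPG5 (0.041) were lost with DESeq2 (0.061 and 0.071) and when any library other than L1low replicate 3 was left out (adjusted p from 0.081 to 0.20 for TGFBR3 and from 0.067 to 0.16 for CSPG5). That of TGFBR3 was also lost in edgeR with scaling to library totals alone (0.055). The call of HSPG2 was lost when L1low replicate 2 was left out (0.082). AGRN, the gene of agrin and the highest of this list at 56.7 RPKM in L1high and 63.9 in L1low cells, was not called (log2 fold change 0.17). APLP2 (0.19) and SPOCK1 (-0.25) were not called either. Of the hyalectans and link proteins, BCAN and HAPLN3 were measured. Neither was called by edgeR or had an unadjusted p under 0.05. DESeq2 did not call BCAN and gave no adjusted p for HAPLN3.

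Of 15 measured genes for chondroitin and dermatan sulfate synthesis, 2 were called, both lower. CSGALNACT1, which starts the chondroitin chain, stood at 9.43, 8.91 and 10.5 CPM in L1high and at 5.61, 4.35 and 4.57 in L1low replicates 1, 2 and 3. It fell by 0.99 on the log2 scale (SE 0.15, adjusted p = 0.0016 in edgeR's quasi-likelihood test) and the groups did not overlap. CHST11, a chondroitin 4-O-sulfotransferase, fell from 9.57 ± 0.449 to 5.51 ± 1.09 CPM (SD, n = 3 each, log2 fold change -0.80, adjusted p = 0.0081 in edgeR's quasi-likelihood test). The call was lost when L1high replicate 1 (0.051) or L1low replicate 2 (0.057) was left out. The highest genes of this list per kilobase, CHPF, DSE and CHSY1, were not called. The median of the 15 was -0.10.

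Of the 16 genes for sugar and sulfate donors, all measured, 2 fell. GFPT2, an enzyme that starts hexosamine synthesis, went from 10.3 ± 0.987 to 5.86 ± 0.688 CPM (SD, n = 3 each, log2 fold change -0.82, adjusted p = 0.0040 in edgeR's quasi-likelihood test). PAPSS2, which makes the sulfate donor PAPS, went from 37.2 ± 1.99 to 27.4 ± 2.16 CPM (-0.44, adjusted p = 0.012 in the same edgeR test). This call was lost when L1high replicate 1 (0.053) or L1low replicate 2 (0.089) was left out. Their relatives in the list were not called. GFPT1 stood at 81.1 CPM in L1high and 76.1 in L1low cells (log2 fold change -0.09). PAPSS1 stood at 39.0 and 42.4 CPM (0.12). Both are named after their values were seen. SLC35B2 and UGP2, which are among the highest of this list per kilobase, were not called.

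Of 18 measured genes for the linker and for heparan sulfate synthesis, 0 were called over the 6 libraries by edgeR. DESeq2 called 0 of those to which it gave an adjusted p. Of the 18, 5 had an unadjusted p under 0.05 in edgeR, all 5 with a log2 fold change above 0. Over the 18 genes, 10 lay above 0 and 8 below, and the median log2 fold change was 0.04. Without L1high replicate 3, 1 was called: NDST1, an N-deacetylase and N-sulfotransferase of heparan sulfate, at a log2 fold change of 0.39 (adjusted p = 0.023 in edgeR's quasi-likelihood test, against 0.30 and 0.071 over all libraries). FAM20B, HS6ST1 and XYLT2 were the highest of them per kilobase, at 18.8, 15.7 and 8.48 RPKM in L1high and 16.7, 15.5 and 9.64 in L1low cells. Of the 3 measured trimming enzymes (SULF1, SULF2 and HPSE), 0 were called by edgeR and 0 had an unadjusted p under 0.05. DESeq2 called neither SULF2 nor HPSE and gave no adjusted p for SULF1. Of the 8 cytoplasmic partners of syndecans and CD44, 0 were called by either tool and 0 had an unadjusted p under 0.05. Among them EZR, the gene of ezrin, stood at 308 ± 8.32 CPM in L1high and 337 ± 11.5 in L1low cells (SD, n = 3 each).

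Over the members, 6 of 8 had groups that did not overlap, 4 with L1low cells higher (LUM, HAS3, SDC1 and GPC1) and 2 with L1low cells lower (SDC2 and CD44), where 28.8% of all genes tested had groups that did not overlap. Of these 6, LUM, HAS3 and SDC2 also passed the test over all genes. As the members were chosen with earlier results known, the shares do not test the set.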

How the data were processed

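Per the methods of the study, TruSeq stranded mRNA libraries were sequenced as paired-end reads. The authors used BWA for alignment to GRCh38 and featureCounts for counting on the gene models of Ensembl release 94. The submitters' processing notes also name DESeq2. Versions, strand and multi-mapping settings are not given in the sources used here. BWA is not a spliced aligner, so reads across exon junctions may be counted less fully. The deposited values are raw read counts, and each deposited gene exceeds 1 CPM in at least 2 of the 6 libraries.

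Symbols, coordinates and summed exon lengths came from GENCODE release 44 (GRCh38), which matched 19344 of 19469 identifiers. L1low was compared with L1high over all 6 libraries in edgeR 4.0.16 (R 4.3.3) with TMM scaling, filterByExpr (19467 genes kept), and the quasi-likelihood test, with p-values adjusted over all genes by Benjamini-Hochberg. All 6 libraries were used because no reason is given for leaving out L1high replicate 3 in the study's table. The standard error is the log2 fold change divided by the square root of F. RPKM is TMM-scaled CPM per kilobase of exon. In simulated data for this comparison (19463 genes), genes shifted by 1 log2 unit were recovered in 168 of 200 cases, with 15 false calls among 183. All member changes were smaller than this shift (LUM, the largest, 0.78), so the recovery does not carry over to them. The lowest member, SDC2, rests on 107 to 239 counts per library. Over all genes, the biological coefficient of variation came to 0.093.

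The members and gene lists were chosen with earlier results of these data known. Named genes are the members, L1CAM, called genes and the 3 highest genes of each list, and the 5 nearest profiles to LUM and HAS3. A gene that the rule names is not reported here. Libraries all differed beyond sampling noise (lowest chi-square per degree of freedom 3.66). The alternatives were each library left out, a block on replicate numbers, DESeq2 1.42.0, other scalings and other filters.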

Additional observations from a re-analysis of the deposited data

How the results depend on the processing

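The calls and directions of all 8 members and of L1CAM held in all 13 alternative fits (6 without 1 library each, a replicate block, DESeq2, 3 other scalings and 2 other filters). The number of genes called over the whole table was 1548 and ran from 627 to 1473 when a library was left out (393 to 859 higher and 234 to 614 lower in L1low cells), with 674 without L1high replicate 1 and 627 without L1low replicate 2. The pathway genes called ran from 9 to 14 in these fits, with 9 without either of these libraries. With a replicate block 2363 genes were called, 1143 of them lower, and 20 pathway genes were called against 14 without it. The block rests on numbers that the labels give without saying what they mark. The correlation of deviations between same-numbered libraries was 0.117, 0.0967 and 0.292, which did not pass the limit of 0.1 for every pair. L1high replicate 2 lay nearer to L1low replicate 1 (0.106) than to its own number. Each L1low library, in turn, had its highest correlation with the L1high library of its own number. For L1low replicate 3 this was 0.292, against -0.151 and -0.17 with L1high replicates 1 and 2. The block changed the call of no member. With it HMMR was called (adjusted p = 0.0047 in edgeR) and 2 genes of heparan sulfate and linker synthesis were called, NDST1 and EXTL3. The SDC4 share of the syndecan sum ran from -0.833 to 0.150 percentage points when a library was left out. Uncalled genes near 0 changed sign in the same fits: BCAN ran from -0.01 to 0.26, CHPF from -0.12 to 0.04, HS6ST1 from -0.08 to 0.03, PODNL1 from -0.04 to 0.28 and SDCBP from -0.10 to 0.16. The cause was not tested. The filter removed 2 genes, so leaving it out tests little. Genes under the level of the deposited table cannot be assessed here.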
